A study of Mus musculus with 24 samples.

Results

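The genes described here make, sense, move and export cholesterol. They were chosen by name, as 28 mouse genes of the mevalonate and sterol pathway, its regulators and sterol transport, and all 28 were found among the 55471 genes of the expression files. They fall into 8 genes of the mevalonate arm, 11 of the arm from squalene to cholesterol, 4 regulators and 5 transport genes. RNA came from skin and from bone of female mice aged 10 weeks. Each tissue had 3 groups of 4 biological replicates, labelled F-PRT, S-PRT and Untreated, and the series concerns a mouse sarcoma model. F-PRT and S-PRT were read here as proton radiotherapy given at FLASH and at standard dose rate. The labels give no strain, dose or time after irradiation. They do not say whether skin and bone came from the same animals, or whether the tissue sampled held tumour. The 12 skin libraries held 16.42 to 22.09 megacounts of expected counts and the 12 bone libraries 10.91 to 17.36 megacounts.

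Cholesterol is built from acetyl-CoA. The mevalonate arm makes isoprenoid units, which are joined into squalene, and the second arm folds squalene into lanosterol and trims it to cholesterol. The transcription factor encoded by Srebf2 is held in the endoplasmic reticulum by the Scap and Insig proteins while sterol is plentiful, and when sterol runs low it is released and switches on the genes of synthesis and uptake. Skin makes much of its own sterol, for the epidermal barrier in keratinocytes and for sebum in sebaceous glands. Cells with surplus cholesterol export it, and Abca1 is the transporter known for this step.

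Many of these genes are controlled through short elements just upstream of the start, so the upstream 250 bases of RefSeq starts (GRCm38.p6) were searched on both strands. A start was found for 23 of the 28 members, and none was matched for Fdps, Fdft1, Sqle, Stard4 and Npc1. The letters TCACNCCAC stand here for the sterol regulatory element, the site bound by the Srebf2 protein, and CCAAT for the box of its partner NF-Y. The letters TCACNCCAC occurred in 1 of the 23 members, Hmgcs1, and in 1.05% of all 32851 upstream windows. The box CCAAT occurred in 19 of the 23 members, in 12 of them more than once, and in 33.8% of all windows. It was found in 6 of 7 matched genes of the mevalonate arm, in 8 of 9 of the sterol arm, in 3 of 4 regulators and in 2 of 3 transport genes. The 4 members without it were Acat2, Dhcr7, Scap and Abca1. A match is a string of letters and not a shown binding site. The 5 windows printed here belong to members that changed in skin or bone, and capitals mark either motif, written 5′ to 3′ on the strand of the gene (CCAAT on the other strand reads ATTGG).
Hmgcs1: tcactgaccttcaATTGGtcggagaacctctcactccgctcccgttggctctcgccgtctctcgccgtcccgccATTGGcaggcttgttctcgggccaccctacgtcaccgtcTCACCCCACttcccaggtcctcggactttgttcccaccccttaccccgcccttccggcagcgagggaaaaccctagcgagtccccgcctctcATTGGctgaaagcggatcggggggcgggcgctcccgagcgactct
Idi1: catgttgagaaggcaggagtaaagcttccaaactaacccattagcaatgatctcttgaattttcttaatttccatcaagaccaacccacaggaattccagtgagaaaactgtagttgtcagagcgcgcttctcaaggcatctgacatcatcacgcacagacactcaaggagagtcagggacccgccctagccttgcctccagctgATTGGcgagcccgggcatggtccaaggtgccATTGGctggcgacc
Insig1: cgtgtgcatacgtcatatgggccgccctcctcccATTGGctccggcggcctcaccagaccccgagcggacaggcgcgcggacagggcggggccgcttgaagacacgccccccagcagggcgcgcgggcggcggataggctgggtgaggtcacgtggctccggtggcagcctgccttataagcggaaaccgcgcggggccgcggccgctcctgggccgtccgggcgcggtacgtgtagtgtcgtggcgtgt
Tmem97: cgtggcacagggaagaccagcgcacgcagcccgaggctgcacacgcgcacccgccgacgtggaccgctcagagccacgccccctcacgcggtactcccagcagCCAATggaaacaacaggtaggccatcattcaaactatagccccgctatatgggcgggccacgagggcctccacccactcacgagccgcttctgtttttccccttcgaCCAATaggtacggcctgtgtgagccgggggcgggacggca
Abca1: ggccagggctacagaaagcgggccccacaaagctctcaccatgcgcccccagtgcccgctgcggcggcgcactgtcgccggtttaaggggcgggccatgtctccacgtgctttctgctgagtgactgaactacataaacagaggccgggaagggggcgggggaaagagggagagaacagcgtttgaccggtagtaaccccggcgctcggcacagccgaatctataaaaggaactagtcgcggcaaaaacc
The windows lie at chr13:119690101-119690350 on the plus strand, chr13:8885356-8885605 on the plus strand, chr5:28071162-28071411 on the plus strand, chr11:78550736-78550985 on the minus strand and chr4:53159896-53160145 on the minus strand. The Hmgcs1 window holds the letters TCACNCCAC 137 bases before the start and 3 CCAAT boxes. Idi1 and Tmem97 each hold 2 boxes, Insig1 holds 1 and Abca1 holds none.

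Untreated skin held far more RNA of the pathway than untreated bone. Levels were compared between genes in TPM, the unit of transcript abundance that allows for gene length. In untreated skin the highest mean levels were those of Fdps, which makes farnesyl pyrophosphate, at 141 ± 61.2 TPM (SD, n = 4, as for all TPM values given with ±), Msmo1, an oxidase of methylsterols, at 109 ± 33.3 TPM, Hmgcs1, which makes HMG-CoA, at 101 ± 27.7 TPM and Idi1, the isomerase of isoprenoid units, at 90.0 ± 15.9 TPM. At the low end stood Pmvk, a kinase of the mevalonate arm, at 5.15 ± 2.02 TPM and Tm7sf2, a sterol reductase, at 3.54 ± 0.509 TPM. Neighbours in this order overlapped in range, except that every library had more Ggps1 than Pmvk.

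In untreated bone the order was another. Npc2, a carrier of cholesterol inside lysosomes, came first at 33.1 ± 10.4 TPM, followed by Srebf2 at 17.3 ± 5.57 TPM and Fdps at 11.2 ± 4.29 TPM, and Pmvk came last at 1.30 ± 0.495 TPM. All neighbours overlapped in range. On counts scaled over both tissues, 26 of the 28 members were higher in skin and 1 lower, by the edgeR quasi-likelihood test with Benjamini-Hochberg adjusted p under 0.05. Of all 20754 genes tested, 32.6% were higher in skin and 32.6% lower. In 26 members every skin library lay above every bone library and in none did all lie below (27.9% and 28.6% of all genes). The median log2 difference, skin minus bone, was 2.32 for the members and -0.00583 for all genes tested.

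The enzymes showed the wide gaps, with log2 differences of 4.27 for Hmgcs1 (adjusted p = 2.81e-16), 4.08 for Msmo1 and 4.07 for Cyp51, the lanosterol demethylase. The medians were 3.44 for the mevalonate arm, 3.30 for the sterol arm, 1.42 for the regulators and 1.18 for the transport genes. Npc2 was the member lower in skin, at -0.47 ± 0.16 (SE, adjusted p = 0.0136), a call that ended without skin Untreated 3 (adjusted p = 0.0621). Ggps1, which makes the geranylgeranyl group used to anchor proteins in membranes and no sterol, did not pass at 0.02, with a 95% interval of -0.22 to 0.25.

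**Figure D1:**
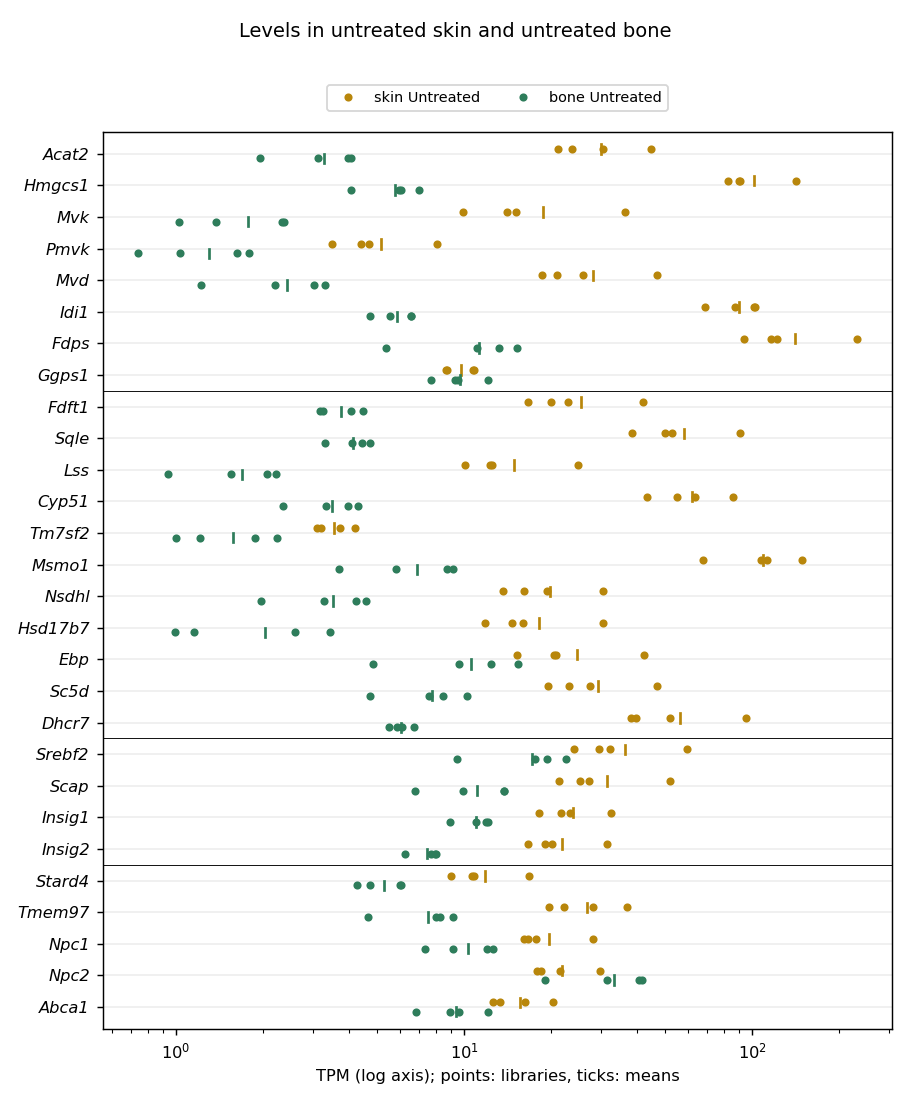
Level of each member in untreated skin and untreated bone, in TPM on a log axis, with a point per library and a tick at the mean of 4. Lines separate the mevalonate arm, the sterol arm, regulators and transport genes. Skin points lie right of bone points for nearly all enzymes, while Ggps1 and Npc2 overlap, with the mean of Npc2 further right in bone.

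A few libraries stood apart, and the markers of other cell types moved with treatment. The libraries carried the marks of their tissue: 6 basal keratinocyte markers summed to 7011 to 9209 CPM (counts scaled to library size with TMM factors) in F-PRT skin, 7269 to 26798 CPM in S-PRT skin and 6850 to 13323 CPM in Untreated skin. The 6 osteoblast markers summed to 15408 to 30387, 25671 to 29468 and 11833 to 20598 CPM in F-PRT, S-PRT and Untreated bone. Skin S-PRT 4 held 5.80 CPM of 6 endothelial markers, against 156.1 to 165.7 CPM in the other S-PRT libraries. In skin Untreated 1, rRNA genes took 6.56% of counts, against at most 0.498% in the other skin libraries. Bone F-PRT 2 held 166.8 CPM of suprabasal keratinocyte markers, and bone F-PRT 3 held 265.1 CPM of cartilage markers where the other F-PRT libraries held 1101 to 1600 CPM. Bone Untreated 1 held 3123 CPM of granulocyte markers, against 9656 to 14181 CPM in the other untreated libraries. Results are given with these 5 libraries, and counts also without them, a choice made after seeing the data.

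In irradiated skin many enzymes of both arms fell, and none of the 28 members rose with edgeR or DESeq2 (1 rose with voom in each comparison). After F-PRT 10 members fell, where 1.39% of all 19038 genes tested fell and 1.00% rose. After S-PRT 14 members fell, where 2.52% of all genes fell and 1.83% rose. The median log2 change of the members was -0.585 after F-PRT and -0.84 after S-PRT, and that of all genes tested was -0.0206 and 0.00371. In 16 members all 4 F-PRT libraries lay below all 4 Untreated libraries (8.14% of all genes did), and in 17 members all 4 S-PRT libraries did (5.37% of all genes). No member had all irradiated libraries above the untreated ones, as 8.02% of all genes did after F-PRT and 3.81% after S-PRT. Both comparisons use the same 4 Untreated libraries, so they are not independent. Without skin S-PRT 4 and Untreated 1, 14 members fell after F-PRT and 14 after S-PRT, while 1 rose after F-PRT and 2 after S-PRT. Most of the falls were smaller in this fit. After S-PRT, Mvd changed by -1.45, Fdft1 by -0.72 and Fdps by -0.75, against -1.82, -1.04 and -1.12 with all libraries. The change of Idi1 after F-PRT was not smaller, at -1.34 against -1.33. In bulk tissue, fewer cells that express a gene and less RNA per cell cannot be told apart.

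Skin markers of another cell type moved beside these genes. The summed level of 8 sebaceous gland markers ran from 745.8 up to 1118 CPM in F-PRT skin, from 251.8 up to 945.4 CPM in S-PRT skin and from 1834 up to 2849 CPM in Untreated skin, so neither irradiated group overlapped the untreated one. Of the 8 markers, 2 fell after F-PRT and 6 after S-PRT, with median log2 changes of -1.07 and -1.96, and none was at 0 throughout a group. The sum of 251.8 CPM was that of S-PRT 4, a library in doubt, and the other S-PRT libraries held 716.9 to 945.4 CPM. Fibroblast markers summed to 2925 to 3731, 287.8 to 4577 and 789.6 to 2774 CPM in the same order of groups. Endothelial markers summed to 153.8 to 173.3, 5.80 to 165.7 and 48.2 to 134.9 CPM, so that F-PRT did not overlap Untreated skin, as fibroblast markers did not. Protein-coding genes took 83.7 to 85.4, 80.4 to 89.8 and 78.6 to 81.2% of counts. Hair follicle markers summed to 6.66 to 38.7, 9.85 to 1096 and 6.95 to 38.6 CPM, with S-PRT 1 the highest library. The part of these cell types and of the RNA classes in the falls was not tested.

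**Figure D2:**
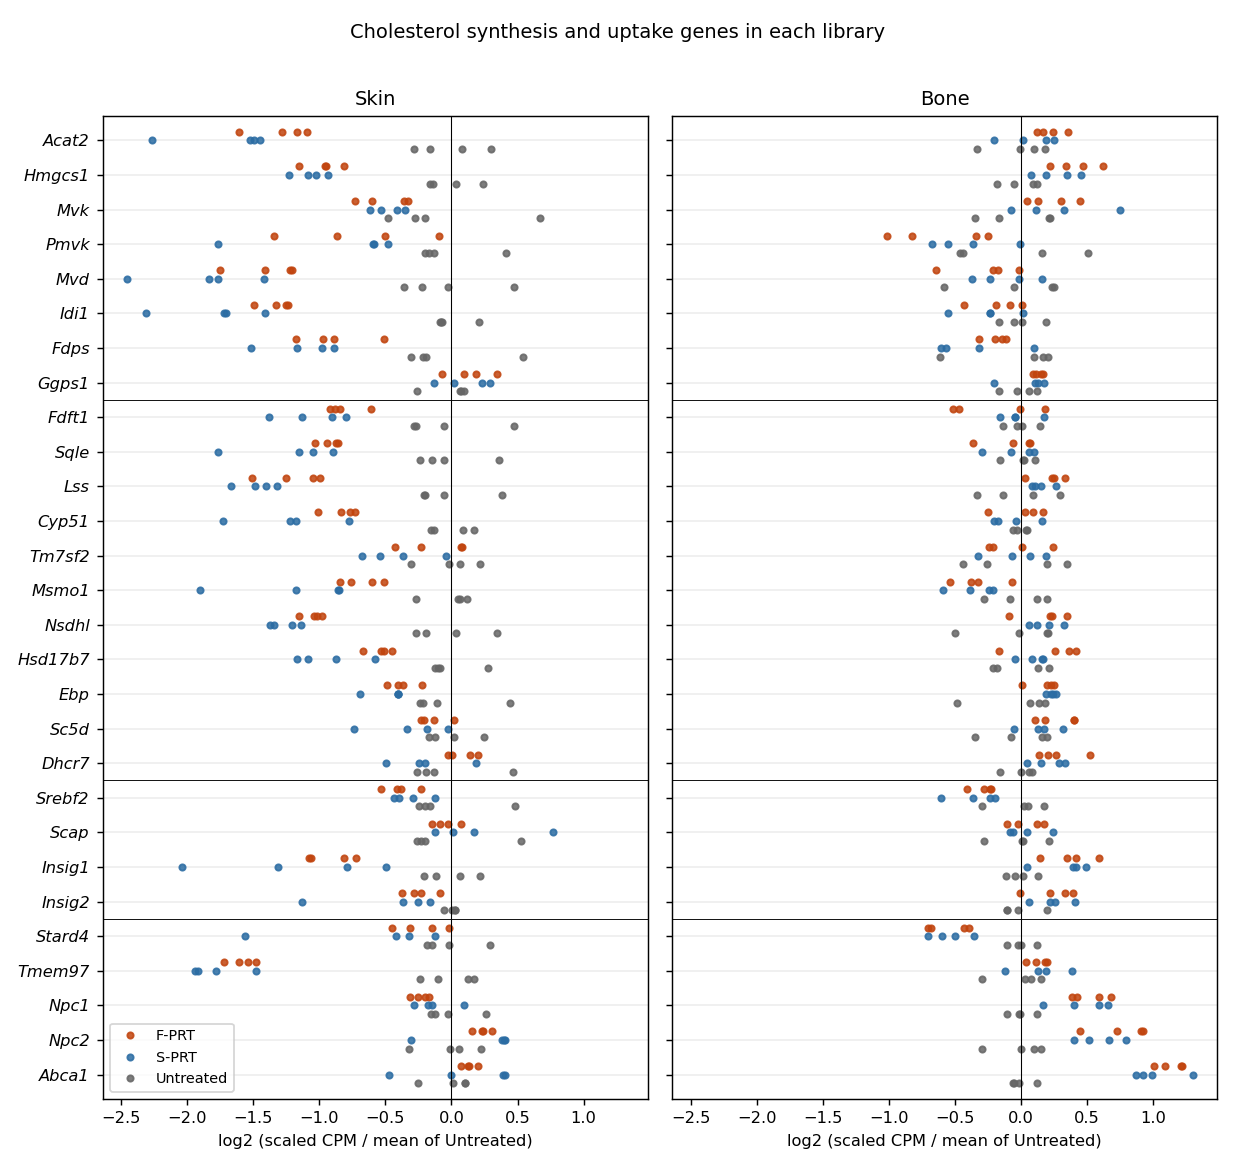
Each member in each library as log2 of its scaled CPM over the mean of the 4 Untreated libraries of its tissue, with a point per library and a row of points per group (F-PRT, S-PRT, Untreated). In skin most enzymes of both arms lie left of 0 after irradiation. In bone the enzymes scatter about 0, and Npc1, Npc2 and Abca1 lie to the right.

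In the mevalonate arm, 4 of 8 genes fell after F-PRT and 5 of 8 after S-PRT in skin. Acat2 (ENSMUSG00000023832, chr17:12942890-12960747), which joins acetyl-CoA units, had 41.2, 47.0, 33.0 and 44.6 CPM in F-PRT, 35.6, 35.0, 36.8 and 20.9 CPM in S-PRT and 123, 106, 82.3 and 89.9 CPM in Untreated skin. Every irradiated library lay below every untreated one. The log2 changes were -1.28 ± 0.19 after F-PRT (SE, adjusted p = 0.00334) and -1.65 ± 0.19 after S-PRT (adjusted p = 0.000449). Hmgcs1 (ENSMUSG00000093930, chr13:119690379-119708260) is the next enzyme, and its upstream window held the letters TCACNCCAC. It had 247, 245, 214 and 272 CPM in F-PRT, 225, 203, 234 and 249 CPM in S-PRT and 561, 432, 426 and 487 CPM in Untreated skin. The irradiated libraries of both kinds stood close together, well under the untreated ones. Its change was -0.96 ± 0.12 after F-PRT (adjusted p = 0.00124) and -1.07 ± 0.12 after S-PRT (adjusted p = 0.000405).

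Mvd (ENSMUSG00000006517, chr8:122433601-122443422), the decarboxylase that yields isopentenyl pyrophosphate, had 26.8, 30.8, 21.1 and 30.6 CPM in F-PRT, 20.9, 20, 26.6 and 13.0 CPM in S-PRT and 98.7, 69.8, 55.6 and 60.9 CPM in Untreated skin. The groups did not overlap, and S-PRT 4 was the lowest library and Untreated 1 the highest. Mvd changed by -1.38 ± 0.23 after F-PRT (adjusted p = 0.00668) and by -1.82 ± 0.23 after S-PRT (adjusted p = 0.000787). Idi1 (ENSMUSG00000058258, chr13:8885501-8892451), the next enzyme, had 136, 145, 121 and 143 CPM in F-PRT, 104, 104, 129 and 68.6 CPM in S-PRT and 322, 394, 324 and 325 CPM in Untreated skin. All untreated libraries lay above all irradiated ones, and Untreated 2 lay above the other 3. Idi1 changed by -1.33 ± 0.16 after F-PRT (adjusted p = 0.00103) and by -1.75 ± 0.17 after S-PRT (adjusted p = 0.000101).

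Fdps (ENSMUSG00000059743, chr3:89093588-89101959), where the arm branches, had 103, 97.0, 84.3 and 133 CPM in F-PRT, 96.8, 84.8, 103 and 66.6 CPM in S-PRT and 277, 167, 154 and 164 CPM in Untreated skin. No irradiated library reached the untreated range, whose top was Untreated 1. Fdps fell after S-PRT, with a log2 change of -1.12 ± 0.21 (adjusted p = 0.00992) and did not pass after F-PRT with edgeR and all libraries, at -0.87 ± 0.21 (adjusted p = 0.0525). The F-PRT fall passed with DESeq2 (0.00947), voom (0.00494) and the 8 libraries compared (0.0335), and without S-PRT 4 (0.0197) or the libraries in doubt (0.0126). Gm43738, a gene model on the same strand, shares 26.7% of the exon bases of Fdps. Ggps1, on the branch away from sterol, had 41.5, 39.1, 46.4 and 34.7 CPM in F-PRT, 42.9, 37.1, 44.7 and 33.4 CPM in S-PRT and 30.5, 38.4, 38.2 and 39.1 CPM in Untreated skin, and the 3 groups overlapped. Its intervals were -0.14 to 0.43 after F-PRT and -0.17 to 0.40 after S-PRT on the log2 scale. The kinases Mvk and Pmvk did not pass either, at -0.49 and -0.63 after F-PRT and -0.47 and -0.77 after S-PRT.

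In the arm from squalene to cholesterol, 5 of 11 genes fell after F-PRT and 7 of 11 after S-PRT in skin. Fdft1 (ENSMUSG00000021273, chr14:63145150-63179578), squalene synthase, had 61.5, 59.9, 58.5 and 72.5 CPM in F-PRT, 63.6, 50.5, 59.1 and 42.5 CPM in S-PRT and 153, 107, 90.7 and 91.8 CPM in Untreated skin. Sqle (ENSMUSG00000022351, chr15:59315077-59331192), squalene epoxidase, had 129, 135, 121 and 136 CPM in F-PRT, 119.8, 111, 133 and 72.9 CPM in S-PRT and 318, 238, 224 and 210.1 CPM in Untreated skin. Neither gene had an irradiated library within the untreated range. Fdft1 changed by -0.81 ± 0.18 after F-PRT (adjusted p = 0.0326) and by -1.04 ± 0.18 after S-PRT (adjusted p = 0.00576). For Sqle the changes were -0.93 ± 0.18 (adjusted p = 0.0159) and -1.18 ± 0.18 (adjusted p = 0.00244). The protease gene Ctsb, on the other strand, shares 18.3% of the exon bases of Fdft1, and no source used here says whether reads were counted by strand.

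Lss (ENSMUSG00000033105, chr10:76531588-76557138), which closes the rings to lanosterol, had 44.9, 51.7, 37.6 and 53.8 CPM in F-PRT, 40.5, 42.8, 38.2 and 33.7 CPM in S-PRT and 139, 103, 92.5 and 93.2 CPM in Untreated skin. Nsdhl (ENSMUSG00000031349, chrX:72918557-72958514), a dehydrogenase that removes methyl groups, had 32.4, 31.5, 28.7 and 31.1 CPM in F-PRT, 29.0, 27.7, 25.1 and 24.6 CPM in S-PRT and 81.0, 65.4, 53.0 and 55.9 CPM in Untreated skin. Both genes were separated without overlap between irradiated and untreated libraries. Lss changed by -1.19 ± 0.16 after F-PRT (adjusted p = 0.0016) and by -1.46 ± 0.16 after S-PRT (adjusted p = 0.000233). The values for Nsdhl were -1.05 ± 0.13 (adjusted p = 0.00115) and -1.26 ± 0.13 (adjusted p = 0.000215).

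Cyp51 (ENSMUSG00000001467, chr5:4081145-4104746) had 152, 164, 135 and 159.7 CPM in F-PRT, 120.1, 117, 159 and 82.0 CPM in S-PRT and 307, 288, 245 and 249 CPM in Untreated skin, with no overlap. It changed by -0.83 ± 0.17 after F-PRT (adjusted p = 0.0213) and by -1.19 ± 0.17 after S-PRT (adjusted p = 0.00171). Msmo1 had 174, 207, 165 and 194 CPM in F-PRT, 131, 164, 163 and 78.8 CPM in S-PRT and 306, 321, 309 and 245 CPM in Untreated skin. Its S-PRT libraries were the lowest and did not overlap the F-PRT ones. Msmo1 fell after S-PRT, at -1.14 ± 0.20 (adjusted p = 0.00634, but 0.0518 with only the 8 libraries compared). After F-PRT its change of -0.67 did not pass with edgeR and all libraries (adjusted p = 0.117). It passed with the 8 libraries compared (0.00905), with voom (0.00549), without S-PRT 4 (0.00546) and without the libraries in doubt (0.00639). Hsd17b7, the keto-reductase of the same demethylation steps, fell after S-PRT, at -0.91 ± 0.14 (adjusted p = 0.00273). Its change of -0.54 after F-PRT did not pass with edgeR and all libraries (adjusted p = 0.0684). That fall passed with DESeq2 (0.0345), voom (0.00845) and the 8 libraries compared (0.0186), and without S-PRT 3 (0.0408), S-PRT 4 (0.0233) or the libraries in doubt (0.0221).

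The remaining 4 enzymes of the sterol arm had no call with edgeR and all libraries. Dhcr7, the reductase that ends one route to cholesterol, had 162, 182, 190.0 and 165 CPM in F-PRT, 143, 139, 188 and 117 CPM in S-PRT and 228, 137, 150.5 and 144 CPM in Untreated skin. The groups overlapped, and Untreated 1 lay far above the other untreated libraries. Its 95% intervals were -0.30 to 0.47 after F-PRT and -0.55 to 0.21 after S-PRT. Ebp, the sterol isomerase, Sc5d, the desaturase, and Tm7sf2 did not pass either, at -0.37, -0.14 and -0.11 after F-PRT and -0.47, -0.30 and -0.39 after S-PRT. All S-PRT libraries lay below all untreated ones for Ebp, which voom called (adjusted p = 0.0418).

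Of the 4 regulators, none passed after F-PRT with edgeR (2 had an unadjusted p under 0.05, and DESeq2 and voom each called Insig1) and Insig1 fell after S-PRT in skin. Insig1 (ENSMUSG00000045294, chr5:28071363-28078662), which retains the Scap complex and is itself a known Srebf2 target, had 36.7, 43.8, 36.3 and 46.4 CPM in F-PRT, 44.3, 54.5, 30.9 and 18.7 CPM in S-PRT and 89.4, 80.4, 66.4 and 70.9 CPM in Untreated skin. All irradiated libraries lay below the untreated ones, and the S-PRT libraries were widely spread. The change was -1.05 ± 0.26 after S-PRT (adjusted p = 0.0383) and -0.91 ± 0.26 after F-PRT (adjusted p = 0.0961). The S-PRT call ended in 11 of 19 alternative fits, among them those without S-PRT 1 or 3, without any of the F-PRT libraries or without any of the Untreated libraries (adjusted p 0.0581 to 0.121), and the F-PRT change passed without S-PRT 4 (0.00721). Srebf2 itself had 166, 184, 180.0 and 204 CPM in F-PRT, 182, 177, 196 and 219 CPM in S-PRT and 334, 202, 215 and 208 CPM in Untreated skin. The ranges overlapped, and the changes of -0.39 and -0.31 did not pass (adjusted p = 0.271 and 0.36). Scap, the sterol sensor, and Insig2 did not pass, at -0.05 and -0.24 after F-PRT and 0.25 and -0.43 after S-PRT, although Scap was higher after S-PRT without skin S-PRT 4 and Untreated 1 (0.27, adjusted p = 0.0497).

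Of the 5 transport genes 1 fell in each comparison, and it had the smallest adjusted p of all members in skin. Tmem97 (ENSMUSG00000037278, chr11:78541817-78550777), an endoplasmic reticulum protein that binds Npc1 and is a known sterol-responsive gene, had 17.9, 18.8, 17.2 and 15.9 CPM in F-PRT, 15.2, 13.6, 18.7 and 13.8 CPM in S-PRT and 59.0, 57.0, 44.5 and 48.8 CPM in Untreated skin. The groups were far apart, and neither irradiated group reached as much as the lowest untreated library. Tmem97 changed by -1.58 ± 0.13 after F-PRT (adjusted p = 6.84e-05) and by -1.77 ± 0.14 after S-PRT (adjusted p = 1.93e-05). The lysosomal exporters Npc1 and Npc2, the carrier Stard4 and the efflux pump Abca1 did not pass, at -0.23, 0.23, -0.22 and 0.13 after F-PRT and -0.12, 0.25, -0.51 and 0.12 after S-PRT. Npc2 rose without skin S-PRT 4 and Untreated 1, by 0.33 after F-PRT (adjusted p = 0.0393) and by 0.49 after S-PRT (0.00638).

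Some of the calls after F-PRT were close to the threshold. Cyp51, Fdft1 and Sqle lost theirs when any F-PRT library or Untreated 2 was left out, and Cyp51 also without Untreated 1 (adjusted p 0.0502 to 0.126). With the replicate block, Cyp51 (adjusted p = 0.0554) and Fdft1 (0.0564) lost theirs too. The other 7 members kept theirs in all 19 alternative fits, with a highest adjusted p of 0.038 for Mvd. Other members also share exon bases with a protein-coding neighbour: Tm7sf2 shares 12.1% with Vps51, Ggps1 shares 5.44% with Arid4b, Npc1 shares 4.52% with Rmc1 and Cyp51 shares 3.76% with Akap9.

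In irradiated bone 4 of the 5 transport genes passed with edgeR and all libraries, and Hmgcs1 was the enzyme that did. After F-PRT 5 members rose and 1 fell, against 15.5% of 18848 genes that rose and 17.2% that fell. After S-PRT 4 members rose and 2 fell, where 13.3% of all genes rose and 15.2% fell. The share of members that rose was close to that of all genes, while the share of members that fell was lower. Whether these shares differ beyond chance was not tested. With edgeR and all libraries, none of the 11 genes of the sterol arm passed in either comparison, and 2 of them had an unadjusted p under 0.05 after F-PRT and 1 after S-PRT. DESeq2 called none of them either, and voom called 3 after F-PRT and 1 after S-PRT. Without the libraries in doubt, 5 members rose and 2 fell after F-PRT, and 5 rose and 4 fell after S-PRT. Msmo1 of the sterol arm was among those that fell in these fits, at -0.54 after F-PRT (adjusted p = 0.0228) and -0.43 after S-PRT (0.0205). Fdps of the mevalonate arm also fell after S-PRT, at -0.47 (adjusted p = 0.0449). The regulator Insig2 was among those that rose, by 0.39 after F-PRT (adjusted p = 0.0401) and 0.32 after S-PRT (0.0383). Dhcr7 rose after F-PRT with RLE scaling (0.30, adjusted p = 0.0458), without F-PRT 3 (0.0429) and without S-PRT 2 (0.0461). The F-PRT total of 6 became 10 without Untreated 1 and 11 with voom. In 6 members all F-PRT libraries lay above all Untreated ones (15.0% of all genes did) and in 4 members all S-PRT libraries did (12.1%). Stard4 alone had all libraries lower, in both comparisons (17.0% and 14.4% of all genes).

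Abca1 (ENSMUSG00000015243, chr4:53030787-53159895) had 318, 369, 338 and 366 CPM in F-PRT, 300.4, 289, 315 and 389.8 CPM in S-PRT and 152, 157, 172 and 152 CPM in Untreated bone. Irradiated libraries stood far above the untreated ones without overlap. Abca1 rose by 1.14 ± 0.11 after F-PRT (adjusted p = 6.63e-06) and by 1.03 ± 0.11 after S-PRT (adjusted p = 1.74e-05). Npc2 (ENSMUSG00000021242, chr12:84754562-84773152) had 232, 266, 192 and 264 CPM in F-PRT, 223, 186, 201 and 244 CPM in S-PRT and 114, 140.1, 156 and 150.0 CPM in Untreated bone, and Npc1, the membrane protein it hands cholesterol to, had 94.5, 116, 97.2 and 109, 109, 81.1, 95.8 and 114 and 67.1, 71.6, 71.9 and 78.9 CPM in the same groups. Both were separated without overlap. Npc2 rose by 0.77 ± 0.13 after F-PRT (adjusted p = 0.000757) and by 0.61 ± 0.13 after S-PRT (adjusted p = 0.00417). Npc1 rose by 0.52 ± 0.11 (adjusted p = 0.00312) and by 0.47 ± 0.11 (adjusted p = 0.00738).

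Stard4, a soluble carrier that moves sterol between membranes, had 24.2, 24.8, 20.02 and 20.3 CPM in F-PRT, 20.03, 23.1, 25.6 and 21.6 CPM in S-PRT and 32.6, 30.4, 35.5 and 32.2 CPM in Untreated bone. Every irradiated library lay below the untreated range. Stard4 fell, with changes of -0.55 ± 0.10 after F-PRT (adjusted p = 0.00145) and -0.53 ± 0.10 after S-PRT (adjusted p = 0.00201). Tmem97, the gene that led in skin, had 17.2, 16.3, 15.5 and 17.0 CPM in F-PRT, 19.7, 16.5, 17.2 and 13.8 CPM in S-PRT and 12.3, 16.7, 15.9 and 15.4 CPM in Untreated bone, and its changes of 0.13 and 0.15 did not pass.

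Insig1 had 44.7, 52.7, 38.6 and 46.7 CPM in F-PRT, 49.2, 36.2, 46.7 and 46.1 CPM in S-PRT and 38.3, 35.3, 33.9 and 32.4 CPM in Untreated bone. All F-PRT libraries lay above all untreated ones, and S-PRT 2 overlapped them. Insig1 rose by 0.39 ± 0.12 after F-PRT (adjusted p = 0.0212). Leaving out F-PRT 2, Untreated 3 or Untreated 4 ended this call (0.0525 to 0.0731). After S-PRT it rose by 0.35 ± 0.12 (adjusted p = 0.0371), which did not hold when any of S-PRT 1, S-PRT 3, S-PRT 4, Untreated 2, Untreated 3 and Untreated 4 was left out (0.0751 to 0.102). With edgeR and all libraries, Hmgcs1 was the enzyme that passed, after F-PRT. It had 33.6, 40.6, 30.8 and 36.6 CPM in F-PRT, 30.2, 27.8, 33.7 and 36.3 CPM in S-PRT and 23.3, 28.1, 28.7 and 25.5 CPM in Untreated bone. As for Insig1, the library S-PRT 2 reached into the untreated range and the F-PRT libraries did not. Hmgcs1 rose by 0.42 ± 0.11 after F-PRT (adjusted p = 0.0124, but 0.0641 without the libraries in doubt), and after S-PRT its 0.27 did not pass (adjusted p = 0.0902). Srebf2 fell after S-PRT, at -0.34 ± 0.11 (adjusted p = 0.0371), a call lost in 11 of 19 alternative fits. Among these were the fits that omitted F-PRT 1, F-PRT 2, F-PRT 4, S-PRT 2, S-PRT 4 or any untreated library but the first (0.0517 to 0.136). The remaining bone changes ran from -0.57 for Pmvk to 0.29 for Dhcr7 after F-PRT and from -0.38 for Pmvk to 0.31 for Mvk after S-PRT.

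Cell type markers and RNA classes shifted in irradiated bone. The miscellaneous RNA class took 3.09 to 4.20% of counts in F-PRT, 4.02 to 4.31% in S-PRT and 5.29 to 10.6% in Untreated bone, with no overlap between irradiated and untreated libraries. Protein-coding genes took 88.1 to 89.1, 86.2 to 88.0 and 75.0 to 86.9% in these groups. The 6 granulocyte markers summed to 507.3 to 658.2 in F-PRT bone, 366.5 to 1030 in S-PRT bone and 3123 to 14181 in Untreated bone (CPM), and all 6 fell in both comparisons. Erythroid markers summed to 1947 to 3384, 1954 to 3650 and 5312 to 5916 CPM in these groups. Osteoclast markers summed to 858.2 to 2110, 1472 to 1837 and 698.1 to 1126 CPM, and all 6 rose in both comparisons. Adipocyte markers summed to 570.8 to 818.1, 523.8 to 743.4 and 248.2 to 385.3 CPM, and 5 of 6 rose in both comparisons. The part of these cell types and RNA classes in the rises of Abca1, Npc1, Npc2 and Insig1 and in the fall of Stard4 was not tested.

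**Figure D3:**
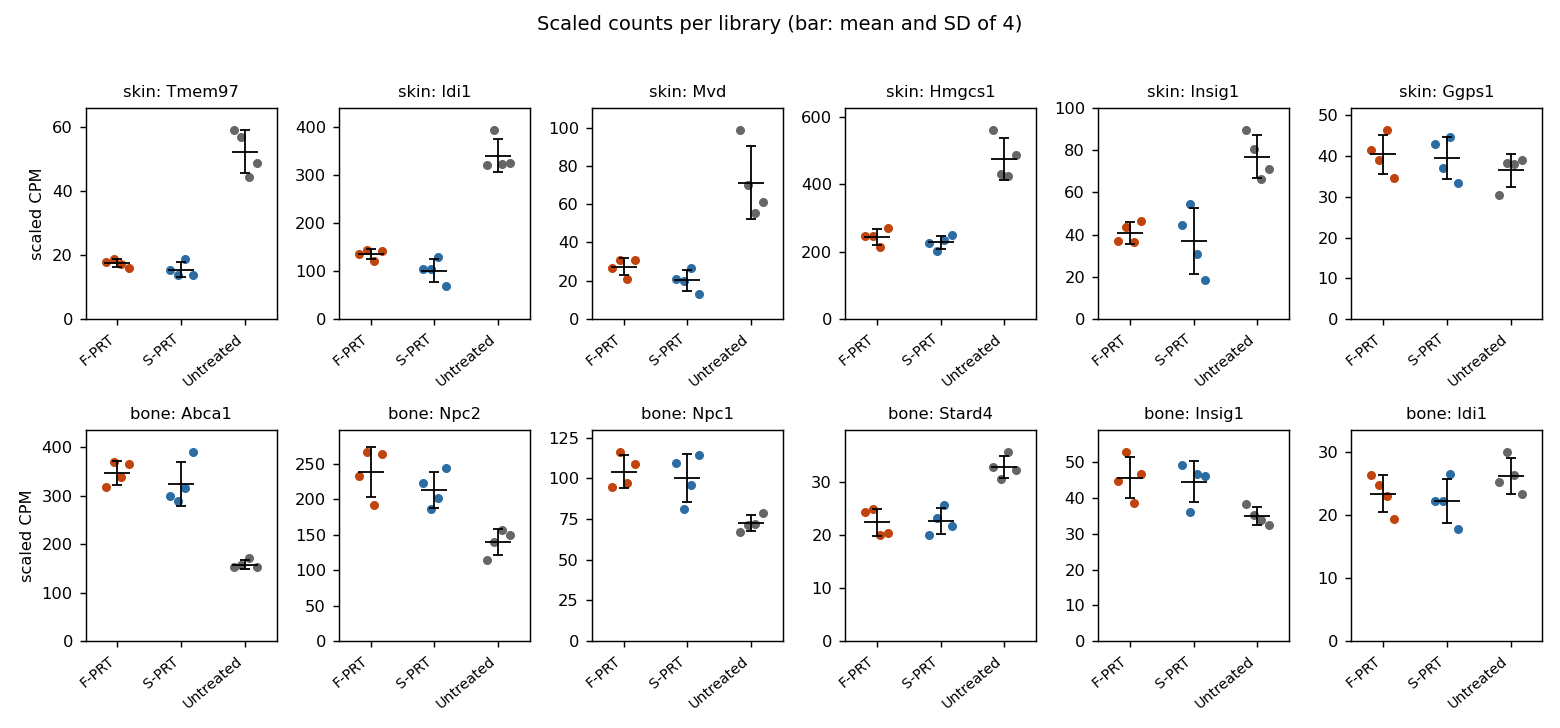
Scaled CPM of selected members per library from 0, with the mean and SD of 4. The upper row shows skin, where Tmem97, Idi1, Mvd, Hmgcs1 and Insig1 are lower in both irradiated groups and Ggps1 overlaps. The lower row shows bone, where Abca1, Npc2 and Npc1 are higher in both irradiated groups and Stard4 is lower. Insig1 has a higher mean in both irradiated groups, with an S-PRT library within the untreated range, and Idi1 overlaps.

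The difference between the tissues was tested directly, as the skin change minus the bone change in a fit of all 24 libraries. At adjusted p under 0.05, it was below 0 after F-PRT for 13 of the 28 members and above 0 for none. At this threshold 5.99% of all 20754 genes were below and 4.66% above. After S-PRT it passed the threshold below 0 for 17 members and above 0 for none. Of all genes, 4.49% passed below and 4.96% above. The median difference was -0.723 and -0.81 for the members, against -0.0171 and 0.0137 for all genes tested. Tmem97 differed by -1.74 ± 0.19 after F-PRT (adjusted p = 3.98e-06) and by -1.94 ± 0.19 after S-PRT (adjusted p = 7.96e-07). Hmgcs1 differed by -1.41 ± 0.17 (adjusted p = 1.69e-05) and -1.36 ± 0.17 (adjusted p = 2.19e-05). Lss differed by -1.44 and -1.65, and Acat2 by -1.52 and -1.73. Neither had a call in bone with edgeR and all libraries, although Lss rose there after F-PRT with voom (0.30, adjusted p = 0.0408) and without Untreated 1 (0.35, adjusted p = 0.045). Abca1 rose in bone and had no call in skin with edgeR and all libraries, and it differed by -1.03 ± 0.22 after F-PRT (adjusted p = 0.00351) and -0.93 ± 0.22 after S-PRT (adjusted p = 0.00764). Stard4, lower in irradiated bone, did not differ beyond the threshold, with intervals of -0.29 to 0.89 and -0.57 to 0.58.

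The counts of differing members leaned on some borderline calls. Without the 5 libraries in doubt they were 12 after F-PRT and 16 after S-PRT. After S-PRT, Msmo1 (adjusted p = 0.0497) lost its call in 22 of 29 alternative fits, Insig2 (0.0436) in 18, Ebp (0.0318) in 8 and Npc1 (0.0217) in 4. After F-PRT, Mvd (0.0231) lost its call in 5 and Hsd17b7 (0.0134) in 2.

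**Figure D4:**
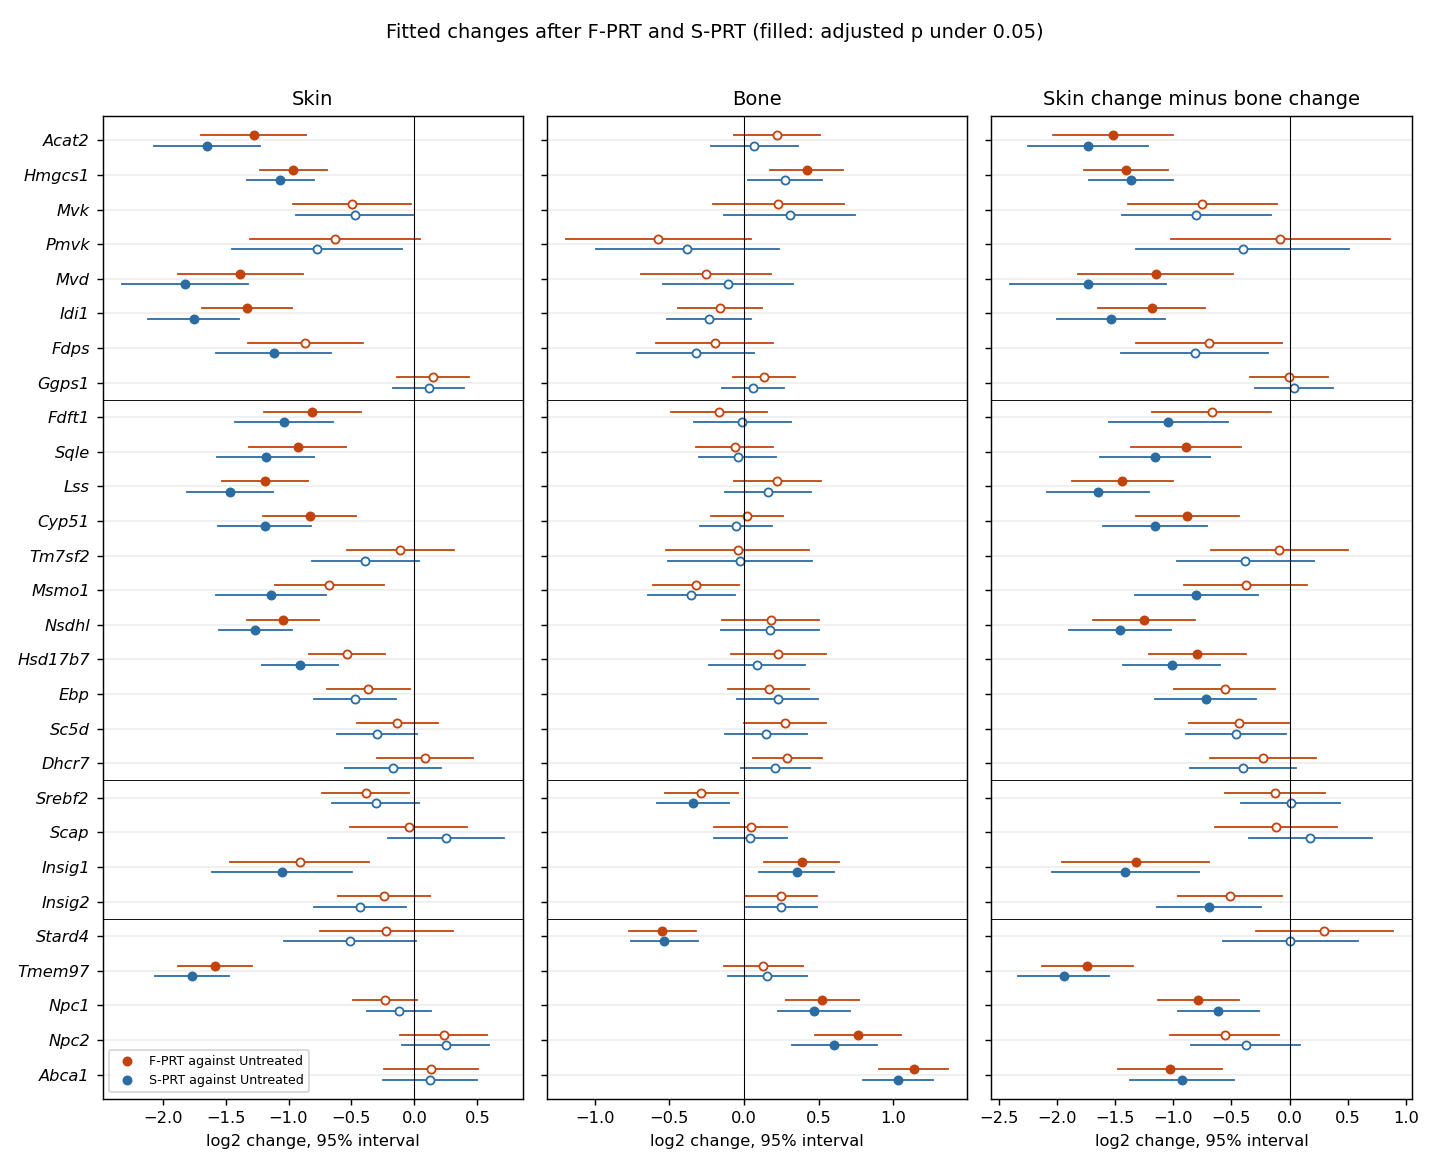
Fitted log2 change of each member after F-PRT and after S-PRT against Untreated, with 95% intervals, in skin, in bone, and as the skin change minus the bone change. Filled points have an adjusted p under 0.05. The filled points in skin all lie left of 0, those in bone lie on both sides, and those of the difference all lie left of 0.

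F-PRT and S-PRT were also compared with each other, the question the series title names. With edgeR, 0 of 28 members passed in skin (0% of all genes tested) and 0 in bone (0.00531% of all genes), and DESeq2 and limma voom also gave 0 in each tissue. In skin Msmo1 had all F-PRT libraries above all S-PRT libraries and no member had them all below (1.37% and 1.31% of all genes), and in bone every member overlapped (1.81% and 1.04% of all genes lay apart). At an unadjusted p under 0.05 there were 3 members in skin, where 522 of 19038 genes passed, and 0 in bone, where 634 of 18848 genes did. The 3 were Idi1, Msmo1 and Hsd17b7, each higher after F-PRT than after S-PRT. Their log2 differences, F-PRT minus S-PRT, were 0.43 (95% interval 0.07 to 0.78), 0.47 (0.04 to 0.89) and 0.37 (0.07 to 0.67), each with an adjusted p of 0.999. Skin S-PRT 4, a library in doubt, was the lowest S-PRT library for Idi1 (68.6 CPM, group median 104) and Msmo1 (78.8 CPM, group median 147). Without skin S-PRT 4 and Untreated 1, Idi1 changed by -1.34 after F-PRT and -1.62 after S-PRT against Untreated. In the same fit Msmo1 changed by -0.65 and -0.92, and Hsd17b7 by -0.42 and -0.71. The median over the members was 0.204 in skin and 0.0453 in bone, and over all genes tested it was -0.0176 and 0.00553. For Tmem97 in skin the interval was -0.10 to 0.47, and for Abca1 in bone -0.12 to 0.33. Such intervals leave room for differences of about the width shown, so a likeness of the treatments was not established. The difference of the F-PRT and S-PRT effects between skin and bone gave 0 of 28 members (0% of all genes) with edgeR and 0 with DESeq2. At an unadjusted p under 0.05 it gave 0 members and 730 of all 20754 genes.

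Other genes of lipid and sterol metabolism were counted by list. Of 13 fatty acid synthesis genes, 1 fell in skin after F-PRT and 4 after S-PRT, while 7 rose in bone after F-PRT and 9 after S-PRT. The shares of all genes were 1.39% and 2.52% that fell in skin and 15.5% and 13.3% that rose in bone, and they apply to the next lists too. In skin Acss2, which makes acetyl-CoA from acetate, changed by -1.38 after F-PRT (adjusted p = 0.0259) and -1.52 after S-PRT (0.0107). In bone the fatty acid synthase gene Fasn rose by 0.85 (adjusted p = 0.00216) and 1.30 (0.000123). Of 17 sterol handling and oxysterol genes, 16 were tested in skin, where 1 fell after F-PRT and 2 after S-PRT, and 6 rose in bone in each comparison. Lpcat3 had the smallest p of this list in skin and fell by -0.82 after F-PRT (adjusted p = 0.0167) and -1.085 after S-PRT (0.0021). Soat1, which esterifies cholesterol and is also on the sebaceous list, fell in skin after S-PRT, at -2.09 (adjusted p = 0.0132). Lrp1 had the smallest p in bone and rose by 0.90 after F-PRT (adjusted p = 0.000186) and 0.93 after S-PRT (0.000176). Lipa, the lysosomal lipase that frees cholesterol from its esters, rose in bone by 1.17 after F-PRT (adjusted p = 0.000795) and 0.76 after S-PRT (0.0139).

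Of 11 genes that use isoprenoids, Pdss1, which makes the side chain of coenzyme Q, was the gene that fell in skin, at -1.10 after F-PRT (adjusted p = 0.00427) and -1.30 after S-PRT (0.00102). In bone 2 rose and 1 fell after F-PRT, and 1 rose and 1 fell after S-PRT, where 17.2% and 15.2% of all genes fell. Of 7 genes that process the Srebf proteins, none passed in skin after F-PRT with edgeR (2 at an unadjusted p under 0.05) and 2 fell after S-PRT, Pgrmc1 (-0.71, adjusted p = 0.00482) and Erlin1 (-0.47, 0.0264). In bone 1 of these 7 rose and 1 fell in each comparison. Pgrmc1 rose by 0.56 after F-PRT (adjusted p = 0.000603) and 0.52 after S-PRT (0.00119). Rnf139, a ubiquitin ligase, fell, at -0.42 after F-PRT (adjusted p = 0.00488) and -0.39 after S-PRT (0.00869). The median skin changes of the 4 lists after F-PRT were -0.545, 0.0859, -0.129 and -0.058 in the order given, and after S-PRT -0.359, 0.132, -0.172 and -0.0349.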

How the data were processed

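PolyA RNA of 24 libraries was sequenced in read pairs, per the labels. The tools that the submitters' processing notes list are RSEM, STAR, cutadapt and FastQC, with GRCm38 as the build. Their versions, roles and strand setting were not given in the sources used here. Per the file headers, the authors deposited expected counts, TPM and FPKM for each gene. FPKM was not used. GENCODE M21 matched 55230 of 55471 identifiers (99.57%). Expected counts were rounded and tested with edgeR 4.0.16 in R 4.3.3 (quasi-likelihood F test, TMM scaling, filterByExpr, Benjamini-Hochberg adjusted p under 0.05) on the 12 libraries of a tissue, or on all 24 for comparisons of tissues. All 28 members passed the filter in both tissues. Alternatives were RLE scaling, DESeq2 1.42.0, limma 3.58.1 voom with quality weights, no filter, the 8 libraries compared, a replicate block and leaving out each library. The workflow was tested on simulated data.

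TPM was used to compare genes within a tissue and scaled CPM to compare libraries, because TPM of all genes shifted between groups by a median log2 of 0.211 (F-PRT) and 0.289 (S-PRT) in skin and 0.71 and 0.634 in bone, while scaled CPM shifted by -0.0292, 0.00217, -0.00338 and -0.00771 (genes of at least 1 CPM). Biological replicates are labelled as such, and nothing says they were separate animals. The p-values therefore set group differences against the spread between these samples. Replicate pairs differed by more than counting noise (chi-square per degree of freedom 9.55 to 210, genes of at least 20 counts). RSEM shares reads among near-identical genes, and 10 of the 28 members share exon bases with another gene, 6 of them with a protein-coding one, so their values are less certain.

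Members, gene lists and markers were chosen with earlier results of these data known. All members are reported. From each other list, up to 3 genes of smallest p were picked among those past the test in a tissue, and some of these are named.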

Additional observations from a re-analysis of the deposited data

Results flagged for a closer look

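In 13 of 168 groups of 4 libraries, 1 library lay far from the other 3 by Dixon's test at the 95% level, which chance gives in about 1 of 20 groups. Of these, 8 were in skin Untreated 1, the library with the high share of rRNA counts. It held the highest level in its group of Fdps (277 CPM, others 154 to 167), Dhcr7 (228, others 137 to 150.5), Srebf2 (334, others 202 to 215), Scap (235, others 136 to 142), Hsd17b7 (123, others 93.1 to 95.4), Ebp (55.4, others 34.6 to 37.8) and Pmvk (10.9, others 7.12 to 7.46), and the lowest of Ggps1 (30.5, others 38.2 to 39.1). Skin S-PRT 4, the library with few endothelial and fibroblast counts, held the lowest Acat2 (20.9 CPM, others 35.0 to 36.8), Pmvk (2.40, others 5.40 to 5.85) and Npc2 (76.1, others 123 to 125). Idi1 was high in skin Untreated 2 (394 CPM, others 322 to 325) and Ebp low in skin S-PRT 2 (25.2, others 30.7 to 30.8).

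The change after treatment differed between skin and bone for 30 combinations of member and treatment, by the interaction test with adjusted p under 0.05. All differences are skin change minus bone change on the log2 scale. After F-PRT they were -1.74 for Tmem97, -1.52 for Acat2, -1.44 for Lss, -1.41 for Hmgcs1, -1.32 for Insig1, -1.25 for Nsdhl, -1.18 for Idi1, -1.15 for Mvd, -1.03 for Abca1, -0.89 for Sqle, -0.88 for Cyp51, -0.79 for Hsd17b7 and -0.78 for Npc1. After S-PRT they were -1.94 for Tmem97, -1.73 for Acat2, -1.73 for Mvd, -1.65 for Lss, -1.53 for Idi1, -1.46 for Nsdhl, -1.41 for Insig1, -1.36 for Hmgcs1, -1.16 for Sqle, -1.15 for Cyp51, -1.04 for Fdft1, -1.01 for Hsd17b7, -0.93 for Abca1, -0.80 for Msmo1, -0.72 for Ebp, -0.69 for Insig2 and -0.61 for Npc1. In Insig1, as in Hmgcs1, Npc1 and Tmem97 among others, the fitted skin and bone changes had opposite signs in both treatments. Not all of these single changes passed, and the skin change of Insig1 after F-PRT did not with edgeR and all libraries. Abca1 and Npc1 were called in bone and not in skin with edgeR and all libraries.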

How the results depend on the processing

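The count of members called after F-PRT in bone was the one to move by over 1.5 times, being 6 in the reported fit, 11 with voom and 10 without Untreated 1, and leaving out a library gave 5 to 10; the cause was not tested. Leaving out each library gave 7 to 14 members after F-PRT and 13 to 15 after S-PRT in skin (10 and 14 with all), 4 to 9 after S-PRT in bone (6), 12 to 14 and 13 to 17 for the difference between tissues (13 and 17) and 26 to 27 for untreated skin against bone (27). F-PRT against S-PRT stayed at 0 members in these refits in both tissues. No called change of a member reversed in any refit. Of refits of called or newly called changes, over all comparisons together, 115 lost and 55 gained a call and 2222 kept theirs. In untreated skin against bone Npc2 alone lost its call, in 3 of 29 fits, so nearly all losses lay in the other comparisons. Whether replicate numbers pair libraries stayed undecided. Deviations of same-numbered libraries correlated from -0.406 to 0.509 in skin and -0.312 to 0.322 in bone. Between skin and bone the range was -0.424 to 0.294. In skin, number 4 gave 0.133 to 0.237 across treatments, while the other numbers gave values of both signs. Such ranges can neither show nor exclude a pairing. With the replicate block 8 and 14 members were called in skin, 6 and 4 in bone and 11 and 12 for the difference, after F-PRT and S-PRT, with 26 for untreated skin against bone. With 4 libraries a group, changes near the threshold cannot be placed firmly on either side. Pmvk, at a few CPM, has the widest interval in every comparison.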

Other observations

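The neighbouring lists were also counted between untreated skin and untreated bone. Of 13 fatty acid synthesis genes, 11 were higher in untreated skin than in untreated bone and 2 lower, with a median log2 difference of 1.78. Of 17 sterol handling and oxysterol genes, 4 were higher in skin and 8 lower (median -0.255). Of 11 genes that use isoprenoids, 6 were higher and 1 lower (median 0.302), and of 7 genes that process the Srebf proteins, 4 were higher and 2 lower (median 0.451). Among all genes tested, 32.6% were higher in skin and 32.6% lower.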
